A study of Homo sapiens with 9 samples.

Results

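Metallothioneins and zinc handling were followed here in a renal carcinoma cell line through 8 genes: the metallothioneins MT2A, MT1E, MT1X, MT1F, MT1G and MT1M, the zinc-sensing transcription factor MTF1 and the zinc exporter SLC30A1. The 8 genes were taken by symbol from a table of 58735 genes, and all 8 are listed there. They were selected on their read counts in these libraries, with the differences between the groups already known, so their fold changes are a description and carry no test of their own. Reads were found for 7 of the 8, and MT1M had 0 reads in each of the 9 libraries.

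The line comes from a clear cell renal cell carcinoma. All groups share its background: VHL, which targets HIF proteins for degradation, is not functional, and HIF1α is lost by mutation, so HIF2α is present at normal oxygen. RNAseq was carried out on untreated WT cells (control), on WT cells that received 10 μM PT2385, an antagonist of HIF2α, and on an untreated HIF2α knockout of the line (KO). All were cultured for 48 h at 21% oxygen, with 3 replicates of each. Knockout is the word of the sample labels. The authors describe lowering HIF2α only with siRNA, and RNAseq only for WT cells with and without PT2385. How the knockout was made, and whether it is 1 clone, is not given in the sources used here, nor is it stated that replicates were separate cultures, so errors measure only the spread between these libraries. Total counts per library ran from 11881000 to 14730081. EPAS1, the gene of HIF2α, had 2788 to 3226 reads in control, 3075 to 3317 with PT2385 and 262 to 360 in KO. Its RNA thus remained in KO, at 0.0873 times the control level. The renal epithelial and clear cell carcinoma markers PAX8, PAX2, LHX1, CDH2, KRT8, KRT18 and VIM each had at least 10 reads in every library. The summed level of 3 endothelial and of 3 leukocyte markers did not exceed 0.167 in counts scaled to a common library total (CPM). That of 5 fibroblast markers ran from 5.22 to 13.3 CPM and is described below. The renal markers differed between groups: PAX2 had 34.2 CPM in control, 25.3 with PT2385 and 13.7 in KO, while KRT8 and KRT18 were highest in KO.

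Metallothioneins are small cysteine-rich proteins that bind zinc and copper and take up toxic metals such as cadmium. Most human metallothionein genes lie in a cluster on the long arm of chromosome 16. When free zinc rises in the cell, MTF1 binds metal response elements in their promoters and in that of SLC30A1 (ZnT1), the exporter that moves zinc out across the plasma membrane. Together they buffer zinc in the cytosol, and in the kidney metallothioneins also protect the tubule from metals.

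The promoters were examined because MTF1 acts through them and because the members moved together or apart in the counts. The RefSeq promoter table (GRCh38.p14, from 250 bases before to 50 bases after the start site) held 4 of the 8 members: MT2A, MT1X, SLC30A1 and MTF1. MT1E, MT1F, MT1G and MT1M had no entry. The core of the metal response element was searched as TGCACNC and TGCGCNC on both strands, and matches are in capitals in the 4 sequences, which are written 5′ to 3′ on the strand of the gene. The windows are chr16:56608334-56608633 (plus strand) for MT2A, chr16:56682220-56682519 (plus) for MT1X, chr1:211579112-211579411 (minus) for SLC30A1 and chr1:37859543-37859842 (minus) for MTF1.
MT2A: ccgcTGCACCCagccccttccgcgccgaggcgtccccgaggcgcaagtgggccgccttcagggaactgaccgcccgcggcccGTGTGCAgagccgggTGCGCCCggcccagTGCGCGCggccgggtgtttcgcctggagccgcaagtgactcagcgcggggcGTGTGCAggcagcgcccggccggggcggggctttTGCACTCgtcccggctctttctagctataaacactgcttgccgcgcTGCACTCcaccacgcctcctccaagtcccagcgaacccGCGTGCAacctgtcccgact
MT1X: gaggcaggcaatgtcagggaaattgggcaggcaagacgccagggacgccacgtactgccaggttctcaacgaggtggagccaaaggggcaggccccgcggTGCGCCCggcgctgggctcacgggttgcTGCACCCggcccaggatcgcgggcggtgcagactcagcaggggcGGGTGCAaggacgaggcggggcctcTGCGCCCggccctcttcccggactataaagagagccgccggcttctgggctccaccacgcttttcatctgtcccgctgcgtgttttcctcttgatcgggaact
SLC30A1: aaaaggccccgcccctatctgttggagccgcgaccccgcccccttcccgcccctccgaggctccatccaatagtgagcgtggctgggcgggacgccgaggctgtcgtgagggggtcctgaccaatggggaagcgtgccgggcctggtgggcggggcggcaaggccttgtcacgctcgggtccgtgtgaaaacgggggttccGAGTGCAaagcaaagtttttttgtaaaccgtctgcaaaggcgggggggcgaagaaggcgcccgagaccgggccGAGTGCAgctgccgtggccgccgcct
MTF1: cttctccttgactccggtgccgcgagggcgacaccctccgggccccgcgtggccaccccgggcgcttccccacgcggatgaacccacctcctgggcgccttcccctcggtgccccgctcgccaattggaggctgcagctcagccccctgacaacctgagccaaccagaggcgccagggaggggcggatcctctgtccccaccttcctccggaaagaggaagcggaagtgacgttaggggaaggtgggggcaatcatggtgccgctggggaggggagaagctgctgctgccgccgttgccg

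The MT2A window held 8 matches to the metal response core, and 7 of 35116 promoters of the same length (0.0199%) held as many or more. MT1X had 4 matches, a number reached by 0.601% of promoters. SLC30A1 had 2, reached by 8.6%, and both lay on the strand opposite to the gene. MTF1 had 0, while 29.6% of promoters held at least 1. The core of the hypoxia response element, to which HIF2α and its partner bind, was searched as ACGTG and GCGTG on both strands. It was found 3 times each in MT2A, MT1X and SLC30A1 (10.1% of promoters held at least 3) and 2 times in MTF1 (23.1% held at least 2). In MT2A, 2 of the 3 hypoxia core matches shared bases with a metal response match. These are matches of letters and not measured sites.

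**Figure D1:**
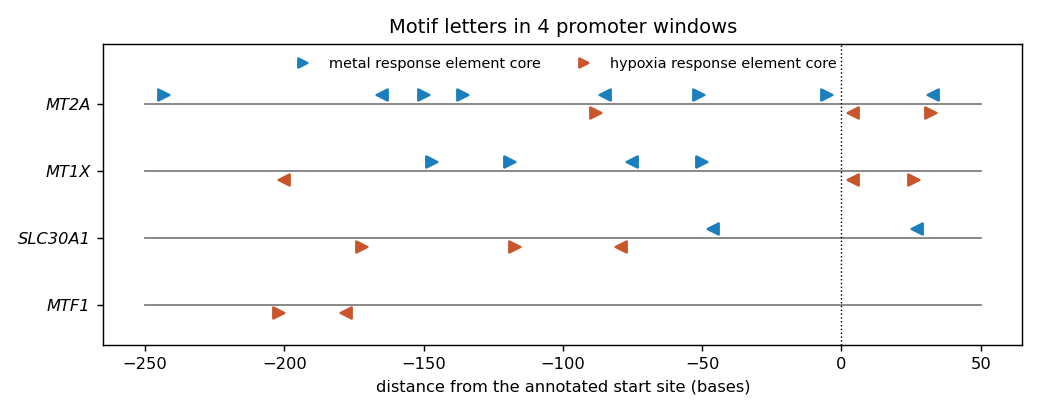
Positions of the motif letters in the promoter windows of MT2A, MT1X, SLC30A1 and MTF1, with the distance from the annotated start site in bases on the x axis and 1 line for each gene. Blue arrowheads are metal response cores and orange arrowheads hypoxia response cores, pointing right for the gene's own strand and left for the opposite one; MT2A carries 8 metal response matches and MTF1 carries 0.

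PT2385 and the knockout are both directed at HIF2α, and the metallothioneins stood at different levels in the 2. Levels are given in CPM after scaling of the libraries with edgeR's TMM factors. In MT2A, MT1E, MT1X, MT1F and MT1G every PT2385 library lay above every control library, and every control library lay above every KO library. This order was found in 226 of 15655 genes (1.44%), and since the members were proposed with these groups in view, nothing further is read from it. SLC30A1 had another pattern, with every PT2385 and every KO library above every control library, as was found in 6.78% of genes. MTF1 was not called in any comparison. In bulk RNA, fewer cells that express a gene and less RNA of it per cell cannot be told apart.

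MT2A (ENSG00000125148, chromosome 16, 56608584 to 56609497, GRCh38), the most abundant of the family, had 223, 269 and 252 CPM in the control libraries, 313, 324 and 340.0 with PT2385 and 202, 218 and 219 in KO. The KO libraries lay just under the lowest control library, while PT2385 stood clear of both. MT1E (ENSG00000169715, chromosome 16, 56625475 to 56627112) had 107, 116 and 109 CPM in control, 134, 124 and 136 with PT2385 and 84.7, 90.7 and 97.1 in KO. Its 3 groups did not overlap either, with means of 111 ± 4.86, 131 ± 6.18 and 90.9 ± 6.20 CPM (SD, n = 3). MT1X (ENSG00000187193, chromosome 16, 56682470 to 56684196) had 21.6, 23.3 and 19.7 CPM in control, 31.5, 28.5 and 27.1 with PT2385 and 14.5, 13.7 and 16.1 in KO. Its means were 21.5 ± 1.78, 29.0 ± 2.27 and 14.8 ± 1.24 CPM (SD, n = 3), again with no overlap.

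MT1F (ENSG00000198417, chromosome 16, 56657731 to 56660698) was counted with far fewer reads, and of the members with reads in all 3 groups it had the largest fold difference between PT2385 and KO. It had 80, 92 and 78 reads in control, 149, 144 and 168 with PT2385, and 12, 27 and 14 in KO. The 3 groups were well separated, at 6.93 ± 0.562, 11.5 ± 0.661 and 1.25 ± 0.536 CPM (SD, n = 3). MT1G (ENSG00000125144, chromosome 16, 56666730 to 56668065, minus strand) had 3, 5 and 1 reads in control, 15, 20 and 20 with PT2385 and 0 in each KO library. The control libraries were thus close to the floor of 3 reads, while the PT2385 libraries were all above it. Against that floor in each KO library, MT1G was at least 6.35-fold lower in KO than with PT2385, and for KO against control no fold is given because the gene was removed by the filter on low counts.

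SLC30A1 (ENSG00000170385, chromosome 1, 211571568 to 211579161) had 37.4, 41.6 and 50.8 CPM in control. With PT2385 it had 76.7, 79.5 and 86.5 CPM, and in KO 83.7, 76.2 and 88.8. The PT2385 and KO libraries overlapped each other, and all 6 lay above the 3 control libraries. MTF1 (ENSG00000188786, chromosome 1, 37809574 to 37859592) had 52.3, 58.8 and 56.5 CPM in control, 63.3, 65.7 and 58.8 with PT2385 and 59.0, 59.9 and 60.5 in KO. The control and PT2385 libraries of MTF1 met at 58.8 CPM, and its lowest KO library lay just above the highest control library.

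**Figure D2:**
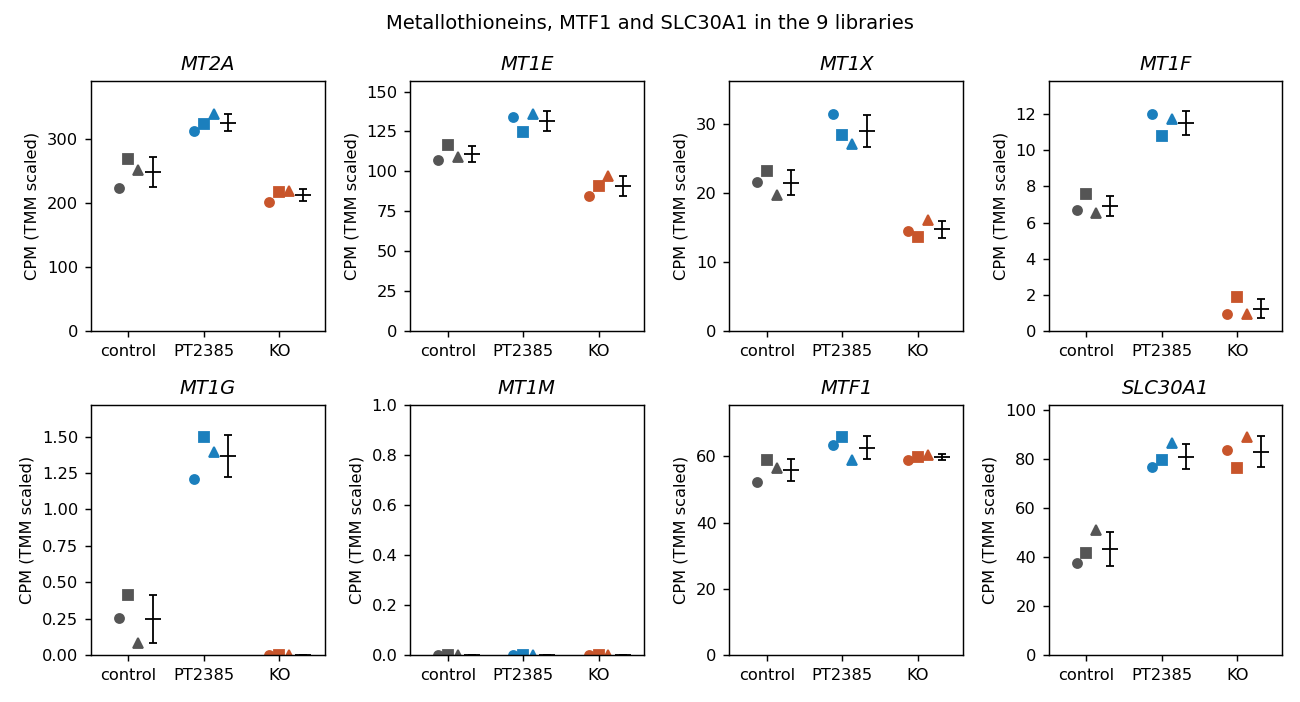
Level of each of the 8 genes (CPM after TMM scaling, y axis from 0 and different for each gene) in the control, PT2385 and KO libraries (x axis), with circles, squares and triangles for replicates 1, 2 and 3 and black bars for the mean and SD of 3. MT2A, MT1E, MT1X, MT1F and MT1G step down from PT2385 to control to KO, SLC30A1 overlaps between PT2385 and KO, and MT1M is at 0 throughout.

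Compared per length, the members covered a wide range. With CPM divided by the length of the canonical transcript in kilobases (RPKM), the control level was 619 ± 58.0 for MT2A, 149 ± 6.51 for MT1E, 53.3 ± 4.41 for MT1X and 16.3 ± 1.32 for MT1F (SD, n = 3). SLC30A1 (7.34 ± 1.17) and MTF1 (7.04 ± 0.419) followed and did not differ beyond their spread, and MT1G was last of those counted (0.607 ± 0.400). With PT2385 the order of the first 4 was the same, with RPKM of 812 ± 33.4, 176 ± 8.28, 71.9 ± 5.62 and 27.1 ± 1.56 (SD, n = 3). In KO, SLC30A1 (14.1 ± 1.08) and MTF1 (7.53 ± 0.0991) stood above MT1F (2.95 ± 1.26).

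The 6 metallothioneins were also summed in each library. The sum was 388 ± 29.0 CPM in control, 499 ± 15.1 with PT2385 and 320.04 ± 15.9 in KO (SD, n = 3). The lowest PT2385 library (489) was above the highest control library (417), and the highest KO library (333) was below the lowest control library (359). The family as a whole was thus 1.29 times the control level with PT2385 and 0.825 times in KO. As a share of all counted reads the sum was 0.0386% ± 0.00257 in control, 0.0503% ± 0.00125 with PT2385 and 0.0319% ± 0.00134 in KO. MT2A and MT1E made up 92.0% to 93.2% of the summed reads in control, 90.9% to 92.2% with PT2385 and 94.9% to 95.2% in KO, so most of the sum is these 2 genes.

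**Figure D3:**
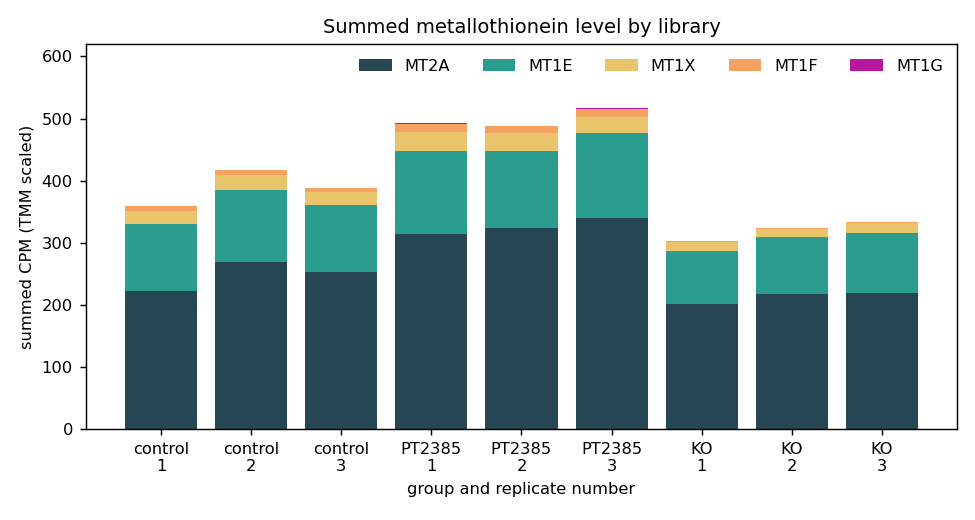
Summed metallothionein level (CPM after TMM scaling, y axis from 0) in each of the 9 libraries (x axis, by group and replicate number), with the parts due to MT2A, MT1E, MT1X, MT1F and MT1G stacked. The PT2385 libraries reach 489 to 516 CPM, the control libraries 359 to 417 and the KO libraries 303 to 333, and MT2A and MT1E fill most of every bar.

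Ratios of reads within a library do not depend on how the libraries are scaled. For every 100 reads of MT2A there were 2.80 ± 0.209 reads of MT1F in control, 3.54 ± 0.265 with PT2385 and 0.585 ± 0.237 in KO (SD, n = 3). MT1F was thus lower in KO relative to MT2A as well, with no overlap between KO and the other groups. MT1E was at 44.8 ± 2.71, 40.4 ± 2.13 and 42.6 ± 1.5 reads for every 100 of MT2A in control, PT2385 and KO, and the KO libraries overlapped both other groups. MT1X was at 8.72 ± 0.934, 8.94 ± 1.05 and 6.94 ± 0.571 reads for every 100 of MT2A, with each KO library below each of the others. For every 100 reads of the summed metallothioneins there were 11.2 ± 1.69 reads of SLC30A1 in control, 16.2 ± 0.588 with PT2385 and 25.9 ± 2.16 in KO. The ratio of exporter to metallothionein reads was thus higher in PT2385 than in control and highest in KO, with no overlap between the libraries of the groups. All these ratios are made of members chosen with the groups known. They follow from the levels given above and are not a further result.

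Differences between groups were fitted with edgeR's quasi-likelihood method across all genes that passed its filter on low counts, and a gene was called at a Benjamini-Hochberg adjusted p under 0.05 over all of them. PT2385 against control asks what differed in cells that received the antagonist. The study's description of the RNAseq does not state whether control cells received the drug's vehicle. An effect of a vehicle therefore cannot be told apart from that of PT2385. Of the 8 members 7 passed the filter, and 6 of them were called, each higher. Of the 15089 genes tested 7.7% were called, 3.08% higher and 4.62% lower, and in 13.4% every PT2385 library lay above every control library. The median log2 fold change of the 7 members was 0.43, beside 0.000993 for all genes tested. The log2 fold change was 0.39 for MT2A (standard error 0.0716), 0.24 for MT1E (0.0648), 0.43 for MT1X (0.0989) and 0.73 for MT1F (0.13). These are rises of 30.9%, 18.3%, 34.3% and 65.4%. MT1G, from few reads, had 2.41 (0.452), and SLC30A1 had 0.90 (0.1), a rise of 1.87-fold. MTF1 had 0.16 (0.0743) and was not called. Each of these 7 genes was higher with PT2385 in 3 of 3 same-numbered pairs. For all but MTF1 this follows from the lack of overlap between the groups and adds nothing to it. The labels give only replicate numbers, and same-numbered libraries of these 2 groups were taken as pairs from their correlated deviations. The fits above do not use the pairs. Adding the numbers as a block raised the number of genes called from 1162 to 2305, with 6 members called as before. MT1E lost its call in each of the 6 fits that left out 1 library, with log2 fold changes from 0.22 to 0.28. MT1X lost it without PT2385 replicate 1 (0.36) or 2 (0.44) and without control replicate 1 (0.43) or 3 (0.37).

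KO against control asks what differed in the cells labelled as a HIF2α knockout. Of the 6 members that passed the filter 1 was called higher and 3 lower. Of the 15192 genes tested 30.1% were called, 14.7% higher and 15.4% lower, and in 23.1% every KO library lay below every control library and in 20.7% above. The median log2 fold change of the 6 was -0.24. MT1E was lower by a log2 fold change of -0.27 (standard error 0.0692), MT1X by -0.53 (0.111) and MT1F by -2.44 (0.254), which is 5.41-fold. MT2A had -0.21 (0.0735) and was not called, although each KO library lay under each control library. It was called without KO replicate 3 (-0.22) and without control replicate 1 (-0.27). MT1E in turn was not called without KO replicate 1 (-0.22) or without control replicate 2 (-0.24). SLC30A1 was higher by 0.95 (0.103), or 1.93-fold. MTF1 had 0.11 (0.0682) and was not called.

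KO against PT2385 compares the knockout and the antagonist directly, without the control libraries that the other 2 comparisons share. Of the 7 members tested 5 were called, each lower in KO. Of the 15402 genes tested 18.8% were called, 8.47% higher and 10.3% lower, and in 18.7% every KO library lay below every PT2385 library. The median log2 fold change of the 7 was -0.61. The log2 fold change was -0.61 for MT2A (standard error 0.0664), -0.53 for MT1E (0.0757), -0.97 for MT1X (0.108) and -3.18 for MT1F (0.234), the last of these 9.07-fold. MT1G was the other gene called, and its bound is given above. SLC30A1 had 0.03 with a 95% interval from -0.15 to 0.21, and MTF1 had -0.07 with one from -0.23 to 0.09. These intervals bound the differences and do not show that the genes were equal.

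**Figure D4:**
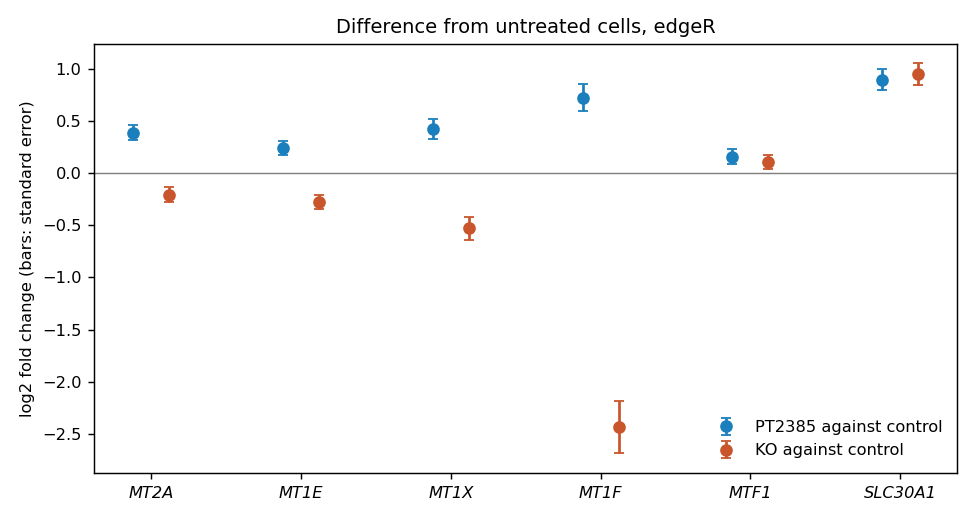
Log2 fold change against untreated cells (y axis, bars are the standard error of the edgeR fit) of the 6 members that were tested in both comparisons (x axis), with PT2385 in blue and KO in orange. The metallothioneins lie above 0 with PT2385 and below 0 in KO, SLC30A1 lies near 0.9 in both, and both comparisons use the same control libraries.

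The remaining metallothionein genes were looked up in the same table. MT1A, MT1B, MT1H, MT1HL1, MT3 and MT4, the last 2 of which are known from brain and from stratified epithelia, had 0 reads in each library. Of 9 pseudogene loci named after metallothioneins 5 had 0 reads in all libraries. MT1L had 23 to 29 reads in control, 28 to 44 with PT2385 and 10 to 49 in KO. It was the single pseudogene to pass the filter, and it was not called in any comparison (edgeR, adjusted p = 0.56, 0.971 and 0.7). MT1P1 had 5 to 13 reads in a library, MT2P1 up to 8 and MT1XP1 up to 2.

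Since metallothionein transcripts resemble each other, reads that match several of them may have been lost or misplaced. Every window of a given length in the canonical transcript of each member was compared with all annotated transcripts. Of windows of 50 bases, 11.1% were shared with another gene in MT2A, 10.3% in MT1E, 6.12% in MT1F, 19.9% in MT1G and 14.6% in MT1M. At 75 bases the shares were 0% in MT2A, MT1F and MT1M, 1.64% in MT1E and 6.55% in MT1G. MT1X stood apart with 51% at 50 bases and 22% at 100 bases, most of it with a long noncoding RNA (ENSG00000259827) annotated over the same span and strand, which itself had 0 reads. The read length is not given in the sources used here, and whether shared reads were lost from MT1X was not tested. SLC30A1 shared 0% of its windows.

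Zinc leaves the cytosol through the SLC30 family (ZnT) and enters it through the SLC39 family (ZIP). Of 10 SLC30 genes 6 were tested, while SLC30A2, SLC30A3, SLC30A8 and SLC30A10 had 0 reads in all libraries. With PT2385 SLC30A1, itself a member, was the only gene called, beside 7.7% of all genes tested, and the median log2 fold change of the 6 was 0.11. In KO SLC30A1 and SLC30A7, a transporter of the early secretory pathway, were called higher, beside 30.1% of all genes, with a median of 0.18. SLC30A7 had 157 ± 9.96 CPM in control, 160 ± 9.42 with PT2385 and 180 ± 3.91 in KO (SD, n = 3), and its log2 fold change in KO was 0.21 (standard error 0.0621, adjusted p = 0.0273, edgeR). It lost the call without KO replicate 1 (0.215), control replicate 1 (0.157) or control replicate 2 (0.226). In KO against PT2385 0 of the 6 were called by edgeR, beside 18.8% of all genes, and 0 by DESeq2. SLC30A7 was the 1 gene of them at an unadjusted p under 0.05 (edgeR).

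Of 14 SLC39 genes 11 were tested. With PT2385 1 was called higher and 1 lower, beside 7.7% of all genes tested, with a median log2 fold change of 0.10 over the 11. In KO 3 were called higher and 3 lower, beside 30.1% of all genes, with a median of 0.09. In KO against PT2385 2 were called higher and 2 lower, beside 18.8%, with a median of -0.04. SLC39A14, a ZIP transporter that also carries iron and manganese, was called lower in both, with 283 ± 10.7 CPM in control, 215 ± 11.8 with PT2385 and 186 ± 27.9 in KO (SD, n = 3). Its log2 fold change was -0.40 with PT2385 (standard error 0.0622, adjusted p = 0.00169) and -0.59 in KO (0.0948, adjusted p = 7.7e-04, edgeR). SLC39A10, a plasma membrane importer whose gene MTF1 is known to repress when zinc is plentiful, had 78.5 ± 4.61 CPM in control, 76.9 ± 7.27 with PT2385 and 122 ± 7.07 in KO. It rose in KO by a log2 fold change of 0.65 against control (standard error 0.0706, adjusted p = 4.65e-05) and of 0.67 against PT2385 (0.0854, adjusted p = 3.47e-04, edgeR). Each KO library lay above each of the 6 others. Among all genes tested, every KO library lay above every control library in 20.7% and above every PT2385 library in 16.7%. With PT2385 the log2 fold change of SLC39A10 was -0.03 (0.0813, adjusted p = 0.86, edgeR). SLC39A10 and SLC30A1 belong to a list of 6 genes tied to MTF1 or zinc status, of which 4 were tested. Of these 1 was called with PT2385, 2 in KO and 1 in KO against PT2385, beside 7.7%, 30.1% and 18.8% of all genes. The call with PT2385 was SLC30A1, a member chosen with these data known, and that in KO against PT2385 was SLC39A10. Both were called in KO, and no other gene of that list was called.

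SLC39A3, SLC39A4, SLC39A8, SLC39A11 and SLC39A13 were also called in at least 1 comparison. SLC39A8, an importer of zinc and manganese, was lower in KO than in control (log2 fold change -0.23, adjusted p = 0.0248, edgeR) and lower than with PT2385 (-0.35, adjusted p = 0.00651). SLC39A13, which serves the secretory pathway, was higher in KO than in control (0.34, adjusted p = 0.0156) and than with PT2385 (0.33, adjusted p = 0.0381). SLC39A3 was higher (0.43, adjusted p = 0.00887) and SLC39A4, the intestinal zinc importer, lower (-0.37, adjusted p = 0.0209) in KO than in control. SLC39A11 was higher with PT2385 than in control (0.32, adjusted p = 0.0314) and lower in KO than with PT2385 (-0.29, adjusted p = 0.0345). Leaving out 1 library at a time, the call was kept in 1 of 6 fits for SLC39A11 with PT2385 (0.27 to 0.35) and in 2 of 6 for SLC39A11 (-0.33 to -0.23) and SLC39A13 (0.26 to 0.39) in KO against PT2385. In KO against control it was kept in 2 of 6 fits for SLC39A8 (-0.28 to -0.19), 4 of 6 for SLC39A4 (-0.43 to -0.33) and 5 of 6 for SLC39A3 and SLC39A13.

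**Figure D5:**
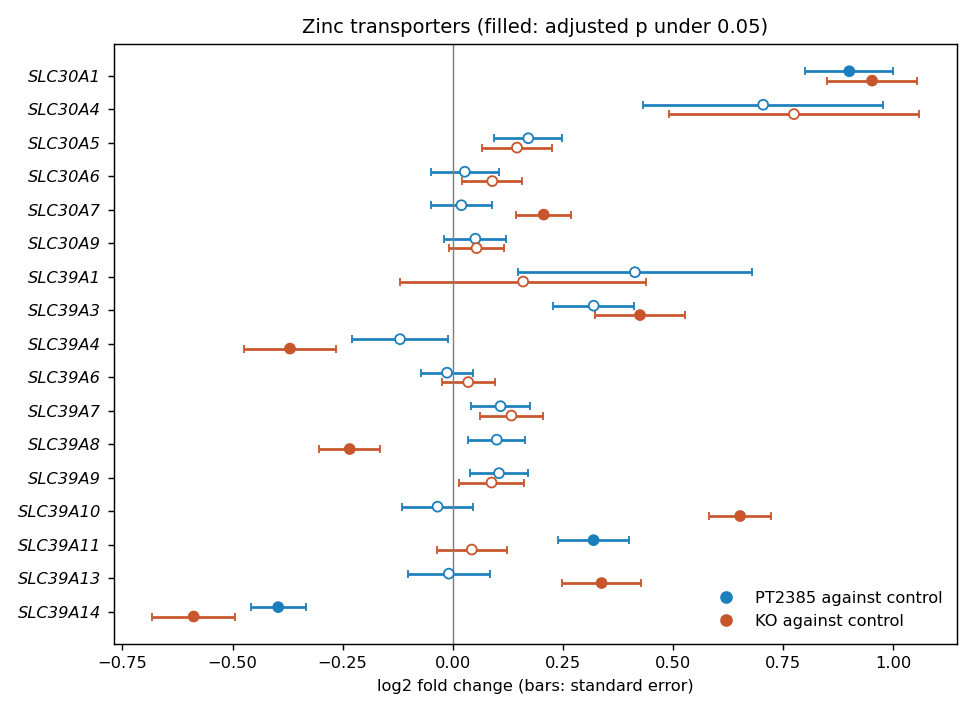
Log2 fold change against untreated cells (x axis, bars are the standard error of the edgeR fit) of the 17 zinc transporters tested (y axis), with PT2385 in blue and KO in orange and filled circles for an adjusted p under 0.05. SLC30A1 is higher in both comparisons, SLC39A14 lower in both, and SLC39A10 is higher in KO.

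Among 10135 genes with at least 100 reads per library on average, those most like the metallothioneins were sought by Pearson's r with the mean of the 5 members counted, each centred and scaled on log2 CPM. The 5 highest were TOR3A (r = 0.984), PPP1R9B (0.983), CKAP4 (0.977), SFXN2 (0.973) and P3H3 (0.972), over 9 libraries that fall into 3 groups. CKAP4, a membrane protein of the endoplasmic reticulum, had 455 ± 12.1 CPM in control, 514 ± 12.4 with PT2385 and 378 ± 24.7 in KO (SD, n = 3). Those most like SLC30A1 were PER1 (r = 0.978), ADA (0.973), CLCF1, IL18 (both 0.97) and CSF1 (0.967). IL18, an inflammatory cytokine, had 2.72 ± 0.257 CPM in control, 10.4 ± 1.91 with PT2385 and 13.3 ± 2.97 in KO, and CSF1, the growth factor of macrophages, had 313 ± 10.3, 389 ± 13.5 and 409 ± 31.0. These r describe a shared pattern over the groups, carry no test and do not bear on shared control.

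The summed level of 5 fibroblast markers moved in the same order as the metallothioneins, from 10.5 to 13.3 CPM with PT2385 to 8.78 to 10.1 in control and 5.22 to 7 in KO. DCN and COL1A2 were at 0 reads in all libraries, and COL1A1, PDGFRB and LUM held the counts. COL1A1 had 55 to 77 reads in control, 86 to 104 with PT2385 and 24 to 45 in KO. PDGFRB had 27 to 31, 23 to 37 and 0 to 2 reads, and LUM had 15 to 22, 29 to 37 and 31 to 60. COL1A1 and PDGFRB were thus lowest in KO, while LUM was not. All libraries were of the same cell line, and the part of these markers in the metallothionein differences was not tested.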

How the data were processed

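RNA from 3 untreated, 3 PT2385-treated and 3 HIF2α KO samples of a renal carcinoma line was sequenced. The authors checked reads with FastQC, trimmed them with cutadapt, aligned them to GRCh38 with STAR and counted them with featureCounts, and deposited raw counts per gene. Strandedness, read length and the annotation release are not given in the sources used here. Groups, replicate numbers, dose and time were taken from the labels, and 0 columns were left unmapped. Of 58735 identifiers 58207 were paired with a symbol in GENCODE v44.

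Each pair of groups was fitted with edgeR 4.0.16 in R 4.3.3 (TMM, filterByExpr with a minimum of 10 counts, quasi-likelihood F test, Benjamini-Hochberg adjustment). Standard errors are the fold change over the root of F. DESeq2 1.42.0, RLE and library-size scaling, no filter, the replicate block, 1 model of 9 libraries and leaving out each replicate were the alternatives. Of these steps only the edgeR and DESeq2 fits of PT2385 against control were tried on simulated counts, with changes larger than those of most members. Similarity of pattern used log2(CPM + 0.5).

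The members and gene lists were chosen with earlier results of these data known. A gene of the renal marker list is not reported here. By rule the text names the members, the listed metallothionein loci and the 5 genes most like each pattern, and may name genes of the other lists that were called in at least 1 comparison. Cell type markers are named as a fixed list, and TSC22D3, KLF9 and SGK1, called in none, were added after their values were seen. Same-numbered PT2385 and control replicates had correlated deviations from their group means over 10140 genes (r = 0.455, 0.137 and 0.432), so their numbers were taken as pairs. With 3 libraries against 3, an exact two-sided permutation test on 1 gene cannot give a p under 0.1. Totals of 11881000 to 14730081 counts limit the precision of genes with few reads.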

Additional observations from a re-analysis of the deposited data

How the results depend on the processing

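Leaving out 1 replicate at a time moved the number of genes called from 574 to 1451 in PT2385 against control (1162 with all 6, 574 without PT2385 replicate 2 and 581, 654 and 728 without control replicates 2, 1 and 3), from 1836 to 3190 in KO against PT2385 (2897 with all 6, the lowest without PT2385 replicate 2), the SLC39 genes called in PT2385 against control from 1 to 2, from 3 to 6 in KO against control and from 1 to 4 in KO against PT2385, and the SLC30 genes called in KO against control from 1 to 3. The difference of SLC30A1 between KO and PT2385, which was not called, turned from 0.03 to -0.0196 without KO replicate 3 and to -7.06e-04 without PT2385 replicate 1, over a range from -0.0196 to 0.0946. The replicate block gave 2305 calls in PT2385 against control. In the comparisons with KO same-numbered replicates correlated at 0.0572 to 0.483, not every library correlated best with its own number, and the block gave 5501 calls in place of 4566 and 3783 in place of 2897. With the block MT2A was called lower in KO than in control (log2 fold change -0.20), as it was with library-size scaling (-0.22), with no filter (-0.21) and in 1 model of 9 libraries (-0.22), while MT1E was not called with PT2385 in that model. Of 240 refits of single members, 219 kept direction and call, 13 lost a call, 6 gained one and 2 turned direction. The causes were not tested. Depth limits MT1G, with at most 5 reads in a control library.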

Other observations

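Metallothioneins also bind copper, and 9 genes of copper handling were read beside them. CP, which encodes the copper-carrying ferroxidase ceruloplasmin, fell from 103 ± 12.8 CPM in control to 12.7 ± 0.447 with PT2385 and 2.66 ± 0.494 in KO (SD, n = 3), which is 8.16-fold and 38.2-fold (edgeR, adjusted p = 1.93e-09 and 2.04e-09). With PT2385 CP was the 1 gene of the 9 called, beside 7.7% of all genes tested. In KO 4 of the 9 were called, beside 30.1% of all genes, and 3 of them were higher, the importer SLC31A1 (log2 fold change 0.19, adjusted p = 0.0318), the exporter ATP7A (0.44, adjusted p = 0.017) and the chaperone ATOX1 (0.36, adjusted p = 0.0275). In KO against PT2385 2 were called, beside 18.8%, SLC31A2 higher (0.56, adjusted p = 0.0188) and CP lower (-2.25, adjusted p = 8.02e-06).

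Toxic metals and glucocorticoids also raise metallothioneins, so the genes of both responses were read. Whether either response had a part in the metallothionein differences was not tested. Of 9 heat shock and oxidative genes 1 was called higher with PT2385, TXNRD1, the cytosolic thioredoxin reductase (656 ± 31.8 CPM in control, 833 ± 64.9 with PT2385, adjusted p = 0.00649, edgeR), beside 7.7% of all genes called. In KO 2 of the 9 were called, beside 30.1% of all genes. TXNRD1 (742 ± 14.4 CPM, adjusted p = 0.0237) and HMOX1, heme oxygenase, were those called, both higher (adjusted p = 0.0282 for HMOX1, edgeR), though the HMOX1 libraries of KO and control overlapped. Of 7 genes of the glucocorticoid response 2 were called with PT2385 (2 lower) and 4 in KO (1 higher, 3 lower). The shares of all genes called were 7.7% and 30.1%, and the median log2 fold changes of the 7 were -0.23 and 0.05. NR3C1, the glucocorticoid receptor, had 196 ± 13.1 CPM in control, 124 ± 6.32 with PT2385 and 157 ± 14.6 in KO, and was called lower in both (adjusted p = 6.67e-05 and 0.014, edgeR). DUSP1, a target of the receptor, was also called lower in both (log2 fold changes -0.74 and -1.39). FKBP5, another target, had 51.4 ± 3.10, 53.8 ± 2.85 and 41.6 ± 3.73 CPM and was called lower in KO (adjusted p = 0.0226). PER1 had log2 fold changes of 0.46 with PT2385 (adjusted p = 0.0532) and 0.49 in KO (adjusted p = 0.0131), and was called in KO. The other 3 targets were not called, with 0.33 and 0.20 for SGK1, -0.35 and 0.05 for TSC22D3 and -0.23 and 0.20 for KLF9. In KO against PT2385 NR3C1 was called higher (0.34) and FKBP5 (-0.37) and DUSP1 (-0.66) lower. In that comparison these were 3 of the 7, beside 18.8% of all genes, and 0 of the 9 heat shock and oxidative genes were called.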
